A study of Mus musculus with 14 samples.

Results

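The genes described here are 45 interferon response genes, a list of genes that cells of many kinds switch on when interferon reaches them. They were taken as a named list that was chosen with earlier results of these data known. They were matched by symbol in the deposited count table, where all 45 of 55487 genes were found. Of these, 44 had enough reads to be tested, among 21014 genes tested in all, and Oas2 was the member left untested. The samples were mast cells sorted from both ears of mice, up to 100 cells per library, in 14 RNA sequencing libraries. Libraries 1 to 5 held resident cells of untreated mice (NT in the labels), 5 in number, and libraries 6 to 10 held resident cells after MC903 treatment, also 5. The other 4 libraries (11, 13, 14 and 15) came from MC903-treated mice and are labelled bone marrow mast cells, while the collection protocol speaks of integrin β7-positive mast cells, so the label is used here as a name only. MC903 is calcipotriol, a vitamin D analogue that is applied to skin to raise an inflammation like that of atopic dermatitis. Genotype, strain, age, dose and length of treatment are not given in the sources used here, and the labels name no animal, so p-values measure the spread between libraries, which may be technical.

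Interferons are secreted proteins that warn cells of infection. Type I and type III interferons act through receptor pairs and the JAK kinases to assemble STAT proteins and IRF9 into a complex that binds a DNA element called ISRE, and interferon gamma acts on an element called GAS. The genes behind these elements make antiviral proteins, sensors of foreign nucleic acid, the ubiquitin-like protein ISG15 and the machinery that cuts and loads peptides onto MHC class I. Mast cells sit at body surfaces such as the skin and carry interferon receptors. Levels below are in CPM, read counts scaled to the size of each library with edgeR's TMM factors, and a gene was called where the Benjamini-Hochberg adjusted p of edgeR's quasi-likelihood test was under 0.05.

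Total counts ranged from 13068078 to 31781926 per library. Genes with at least 1 count numbered 21874 to 25244 in untreated resident and 22632 to 35246 in MC903 resident libraries, with libraries 7 and 8 the highest. They numbered 16025 to 19817 in bone marrow libraries 11, 13 and 14, fewer than in every resident library, and 32814 in library 15. Libraries 7 and 8 had the lowest totals. The part of these differences in the comparisons was not tested. The summed level of 10 mast cell markers was 85070 to 159600 CPM in every library. A list of 12 macrophage and dendritic cell markers summed to 57.9 to 139.9 CPM in untreated resident, 61.7 to 175.5 CPM in MC903 resident and 80.6 to 359.8 CPM in bone marrow libraries 11, 13 and 14, but to 10900 CPM in library 15. There Lyz2 was at 4817, C1qb at 2252, Csf1r at 1100 and C1qa at 786 CPM, each of which was at 0 in at least 1 other bone marrow library. The effect of leaving out library 15 is given below for the members called and for Irf1, Gbp2, Zbp1 and Oas1a, by edgeR alone. A list of 7 T cell markers summed to 45 CPM in library 14, with all 7 over 3 counts, and to 9.9 CPM or less in each other library. Plasmacytoid dendritic cells are known as strong producers of interferon, and their 3 markers (Siglech, Ccr9 and Klk1) summed to at most 8.23 CPM in any library. Each library is a bulk sample, so fewer cells of a type and less RNA per cell cannot be told apart.

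The starts of the genes are shown first, because the 2 DNA elements named above are known from interferon-induced genes and were not used to choose the list. RefSeq promoter windows (GRCm38.p6, 250 bases before to 50 after a start) were found for 35 of the 45 members. A repeat of the ISRE type was written as GAAA, any 2 bases, GAAA, and searched on both strands. It was found in 18 of the 41 windows of these members (43.9%), which belong to 17 of the 35 genes, and in 3.44% of all 32851 windows. A palindrome of the GAS type was written as TTC, any 3 bases, GAA. It was found in 9 of the 41 windows (22%) and in 8.3% of all windows. Counted by gene, among members called in at least 1 comparison below the ISRE-type repeat was found in 3 of 9, and among those not called in 14 of 26. A match is a run of letters and no measured site. The first 6 lines show members with the repeat, in capitals, as it runs on the strand of the gene, or TTTC, any 2 bases, TTTC where it lies on the other strand. In Isg15 there are 3 overlapping matches, and in Ifitm3 the second match overlaps a GAS-type palindrome. Isg15, Ifitm2 and Ifitm3 were called below, and Ifit1, Ifit3 and Gbp2 were not. The lines for Isg15 (chr4:156200819-156200928, minus strand), Ifitm2 (chr7:140955962-140956071, minus), Ifit1 (chr19:34640779-34640888, plus) and Gbp2 (chr3:142620553-142620662, plus) hold the 110 bases before the start. That for Ifit3 (chr19:34583369-34583478, plus) holds the bases 160 to 51 before it, and that for Ifitm3 (chr7:141010715-141010744, minus) the 30 bases from the start onward.
Isg15: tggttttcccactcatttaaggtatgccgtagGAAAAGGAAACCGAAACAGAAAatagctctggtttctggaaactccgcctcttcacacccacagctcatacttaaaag
Ifitm2: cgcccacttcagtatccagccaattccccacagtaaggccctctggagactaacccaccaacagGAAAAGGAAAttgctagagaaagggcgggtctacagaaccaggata
Ifitm3: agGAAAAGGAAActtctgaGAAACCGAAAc
Ifit1: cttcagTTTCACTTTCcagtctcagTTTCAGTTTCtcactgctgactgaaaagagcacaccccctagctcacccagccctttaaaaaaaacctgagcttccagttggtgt
Ifit3: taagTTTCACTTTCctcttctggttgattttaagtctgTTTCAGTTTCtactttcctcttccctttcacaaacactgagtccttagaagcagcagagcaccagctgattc
Gbp2: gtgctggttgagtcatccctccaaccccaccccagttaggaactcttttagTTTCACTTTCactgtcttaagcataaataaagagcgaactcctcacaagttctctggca

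The next pair shows the GAS-type palindrome in capitals in the 110 bases before the starts of Psmb8 (chr17:34198085-34198194, plus strand), which was called below, and Irf1 (chr11:53769904-53770013, plus), which was not.
Psmb8: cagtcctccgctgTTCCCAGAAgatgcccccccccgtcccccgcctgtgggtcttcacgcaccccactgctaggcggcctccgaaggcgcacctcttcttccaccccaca
Irf1: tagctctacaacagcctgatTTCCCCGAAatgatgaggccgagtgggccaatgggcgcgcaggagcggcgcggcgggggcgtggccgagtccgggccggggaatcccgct

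Tap1 and Psmb9 lie back to back on chromosome 17 and share the 225 bases between their starts (chr17:34187331-34187555, shown on the strand of Tap1), which held 0 matches of either element.
Tap1 and Psmb9: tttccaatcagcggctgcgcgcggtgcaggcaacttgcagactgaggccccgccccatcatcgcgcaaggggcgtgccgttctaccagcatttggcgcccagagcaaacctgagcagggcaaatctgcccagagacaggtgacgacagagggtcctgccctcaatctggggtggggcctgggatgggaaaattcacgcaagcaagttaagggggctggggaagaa

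In MC903 resident against untreated resident cells, 2 of 44 members tested were higher (Isg15 and Ifitm3) and 0 were lower, where 0.571% of all genes tested were called higher and 1.68% lower. In bone marrow against MC903 resident cells, 2 were higher (Ifitm2 and Tap1) and 0 lower, against 1.32% and 0.952% of all genes. In bone marrow against untreated resident cells, 11 were higher (Isg15, Ifitm2, Ifitm3, Oasl1, Rtp4, Xaf1, Psmb8, Psmb9, Tap1, Lgals3bp and Ifi27l2a) and 0 lower, against 3.49% and 3.37% of all genes. The 3 comparisons share libraries: each group enters 2 of them. The list was chosen with earlier results of these data known, so its counts beside those of all genes only describe it. At an unadjusted p under 0.05, edgeR had 9, 11 and 19 members higher, in that order, against 6.07%, 7.04% and 9.76% of all genes, and 1, 1 and 1 lower, against 6.56%, 10.6% and 11.5%. DESeq2's Wald test called 6, 6 and 16 members higher, against 2.86%, 2.12% and 6.12% of all genes, and 0 lower, against 2.25%, 6.07% and 7%. With voom quality weights limma called 2, 6 and 13 higher, against 3.15%, 3.2% and 5.14% of all genes, so that its 2 of 44 in the first comparison (Bst2 and Ifih1, neither of them an edgeR call) lay near the background. It called 1 member lower in the first comparison (Samd9l) and 0 in the others, against 3.32%, 6.4% and 5.3% of all genes. Without library 15 the last comparison had 9 of 44 members higher, against 718 of 24370 genes tested. Psmb9 (adjusted p = 0.103) and Lgals3bp (0.0811) were lost there. Without library 14, the one with the T cell markers, it had 6 of 45, against 633 of 24442 genes tested. These 6 were Isg15, Ifitm2, Ifitm3, Psmb8, Tap1 and Ifi27l2a. The part of the macrophage and T cell markers in these counts was not tested.

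The median log2 fold change of the members tested was 0.75 in MC903 resident against untreated resident cells, 0.53 in bone marrow against MC903 resident cells and 1.10 in bone marrow against untreated resident cells. Over all genes tested it was 0.24, -0.28 and -0.14. The fold change was above 0 for 37, 33 and 37 of the 44 members, and for 60%, 40.7% and 45.1% of all genes. DESeq2 size factors moved the median of all genes by 0.151 in the first comparison and by -0.15 in the second, and that of the members to 0.88 and 0.35. With a filter at a mean of 10 CPM, which left 27 members, the medians of all genes were 0.0285, 0.0256 and 0.027. Those of the members were 0.62, 0.222 and 0.881. Without library 15 the median of all genes was -0.835 in bone marrow against MC903 resident cells and -0.618 against untreated resident cells. There the members had 0.447 and 0.989. The median of all genes thus depended on the genes kept and on library 15. These medians describe the list and single nothing out, since members that passed the filter through a group where they were high had to differ.

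**Figure D1:**
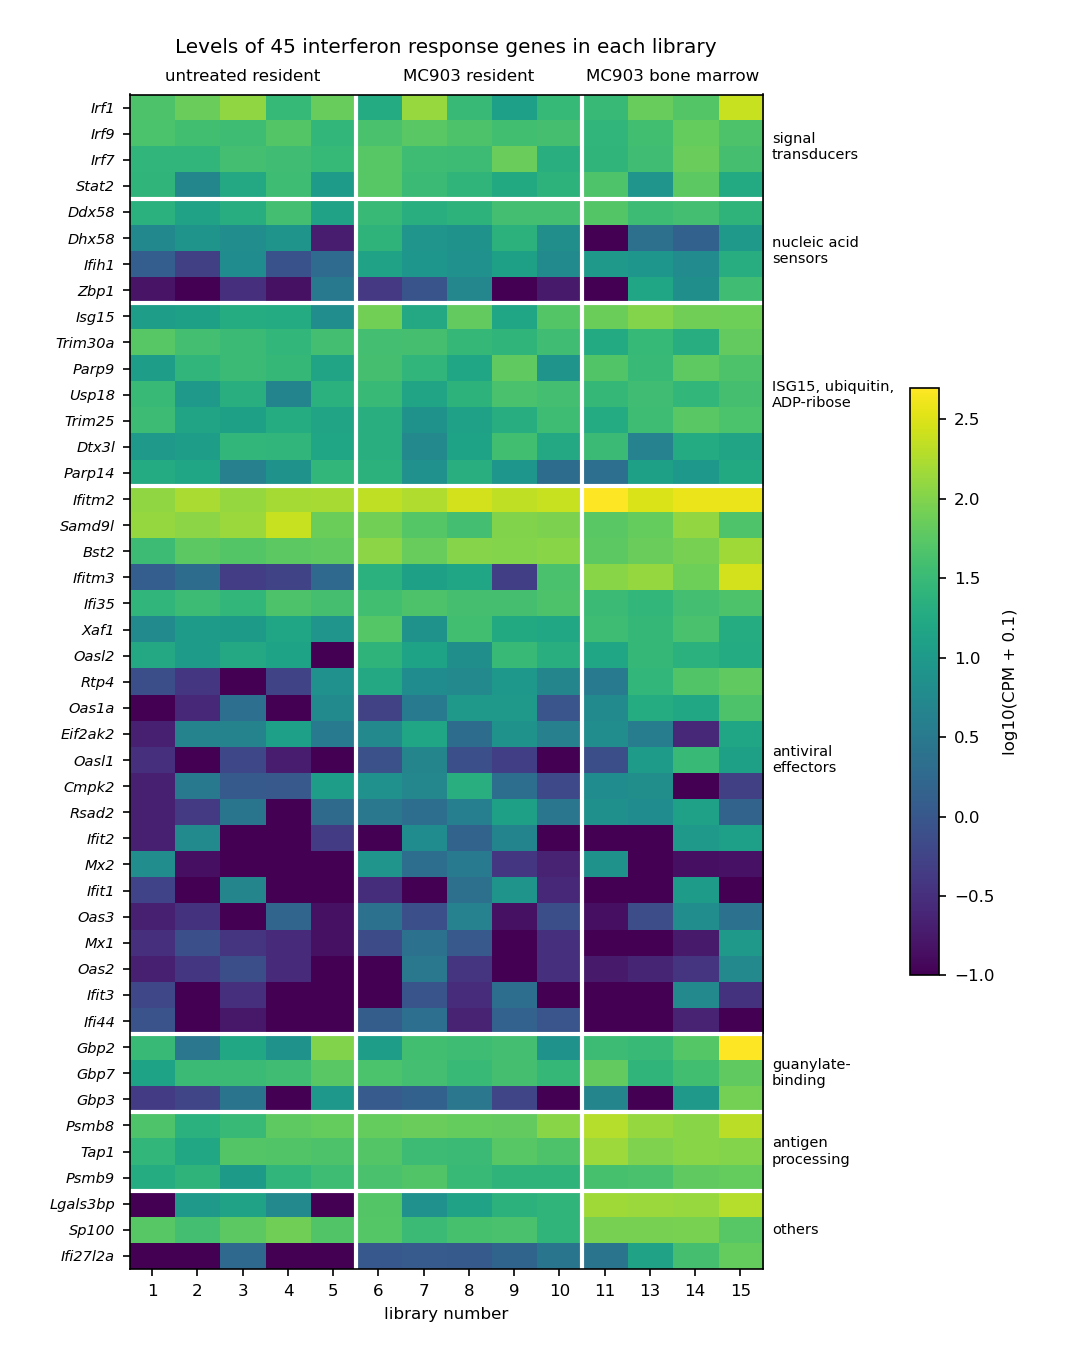
Level of each of the 45 members in each library, as log10 of CPM plus 0.1 (colour), with members in rows by role and libraries in columns by group. Ifitm3, Lgals3bp and Ifi27l2a are darker in the untreated resident than in the bone marrow libraries, Gbp2 is brightest in library 15, and the IFIT and MX genes are dark in most libraries of every group.

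**Figure D2:**
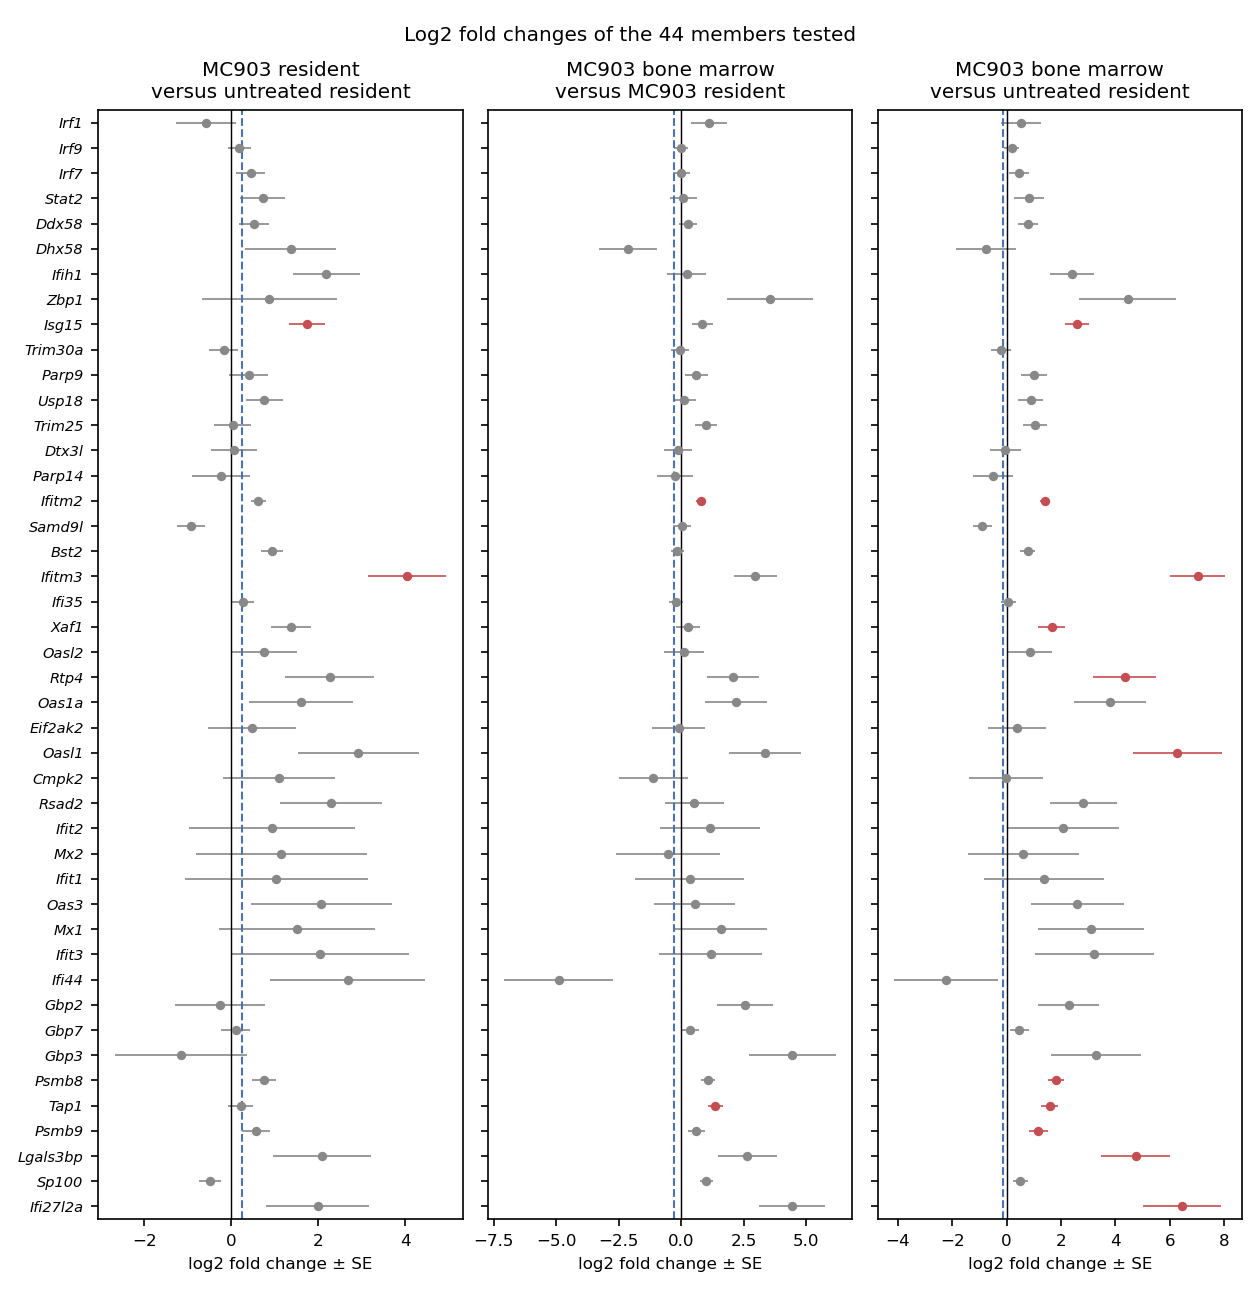
Log2 fold change of the 44 members tested (x axis, points with bars of 1 SE) in the 3 comparisons, with members called at an adjusted p under 0.05 in red, the others in grey and the median of all genes tested as a dashed line. There are 2, 2 and 11 red points, and each lies to the right of 0.

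By libraries, the groups did not overlap for 2 members in MC903 resident against untreated resident cells, both higher in MC903 cells (Ifitm2 and Bst2), where 2.17% of all genes tested were higher without overlap. Between bone marrow and MC903 resident cells, 5 members were higher in the former without overlap (Ifitm2, Ifitm3, Tap1, Lgals3bp and Sp100) against 3.97% of all genes, and 1 was lower (Ifi44) against 4.32%. In bone marrow against untreated resident cells, 11 were higher without overlap against 5.13% of all genes, and these were the called members except Rtp4, with Oas1a in addition. With 2 of 44 (4.55%), the first comparison lay near its background.

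Members differed widely in level. Per kilobase of transcript length, the median member was at 2 CPM in untreated resident, 4.34 CPM in MC903 resident and 7.59 CPM in bone marrow cells, while the median over all genes tested was 1.02, 1.28 and 1.08 CPM. Ifitm2 had the highest mean per kilobase over the 14 libraries (377 CPM), ahead of Bst2 (88.8), Ifitm3 (73.3) and Isg15 (63.6), and Ifi44 the lowest (0.0769). Between 33 and 44 members had over 3 counts in a library, with the fewest in library 5 and the most in library 7. Counts of reads were given to genes by exons, and 19 of the 45 members share exon bases with another gene, so their values are uncertain to that extent.

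The transcription factors and transducers of the list showed no call. These were Stat2 and Irf9, members of the ISRE-binding complex, Irf7, which drives interferon alpha genes, and Irf1, which carries the interferon gamma response. In none of the 3 comparisons was any of the 4 called by edgeR, DESeq2 or limma, and 0 had an unadjusted edgeR p under 0.05. Irf1 (ENSMUSG00000018899.16, plus strand of chromosome 11 from 53770014 to 53778374) had the highest level per length of them. It was at 45.5, 70.5, 122, 30.3 and 69.3 CPM in libraries 1 to 5. In MC903 resident libraries 6 to 10 it was at 18.5, 133, 31.7, 12.2 and 29.4 CPM, and in bone marrow libraries 11, 13, 14 and 15 at 31.3, 68.0, 50.2 and 240 CPM. The groups overlapped, with library 7 far above the other MC903 resident libraries and library 15 above all others. Its log2 fold change against untreated resident cells was -0.59 ± 0.69 (SE) in MC903 resident cells (adjusted p = 0.841), and it ran from -0.23 without library 3 to -1.52 without library 7. In bone marrow cells it was 0.53 ± 0.726 (adjusted p = 0.756), which turned to -0.44 without library 15. Mean levels of Irf9 lay between 39.3 and 44.6 CPM and those of Irf7 between 31.5 and 43.2 CPM across the groups. Stat2 was at 18.8 ± 12.2 CPM (SD, n = 5) in untreated resident, 31 ± 13.9 CPM (n = 5) in MC903 resident and 33 ± 23.5 CPM (n = 4) in the bone marrow group, with overlap.

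The cytosolic sensors of viral nucleic acid showed no edgeR call with all libraries and the filter. Ddx58 encodes RIG-I and Ifih1 encodes MDA5, both RNA helicases that signal to interferon genes, Dhx58 encodes their relative LGP2, and Zbp1 binds Z-form nucleic acid. Ddx58 (ENSMUSG00000040296.15, minus strand of chromosome 4 from 40203773 to 40239828), the sensor highest per length, was at 23, 13.4, 20, 38.5 and 13.6 CPM in libraries 1 to 5. It was at 31.9, 20.4, 24.8, 39.1 and 39 CPM in libraries 6 to 10 and at 51.4, 34.6, 39.3 and 25.1 CPM in libraries 11, 13, 14 and 15. The groups overlapped, and the log2 fold change of bone marrow against untreated resident cells was 0.79 ± 0.366 (SE, adjusted p = 0.212). Ifih1 was at 2.09 ± 2.37 CPM (SD, n = 5) in untreated resident, 9.5 ± 3.39 CPM (n = 5) in MC903 resident and 11.2 ± 6.29 CPM (n = 4) in the bone marrow group. Against untreated resident cells its adjusted p was 0.174 in MC903 resident and 0.078 in bone marrow cells by edgeR, while DESeq2 and limma called it higher in both. Without library 3 edgeR called Ifih1 in both. Of the 4 sensors, 1, 0 and 3 were higher at an unadjusted edgeR p under 0.05 in the 3 comparisons (6.07%, 7.04% and 9.76% of all genes), and 0 were lower. Zbp1 was called in bone marrow against untreated resident cells by DESeq2 and, in edgeR, with no filter or without library 5, but not without library 15. It was at 36.7 CPM in library 15 and at 0 in library 11. Dhx58 had means of 5.53, 14.2 and 3.27 CPM in the 3 groups, with overlap.

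Among the genes of ISG15 conjugation, ubiquitin and ADP-ribose, only Isg15 was called by edgeR, DESeq2 or limma. Isg15 encodes a ubiquitin-like protein that is attached to other proteins or secreted (ENSMUSG00000035692.7, minus strand of chromosome 4 from 156199455 to 156200796). It was at 11.8, 12.5, 19.4, 18.6 and 6.41 CPM in untreated resident libraries 1 to 5. In MC903 resident libraries 6 to 10 it was at 81.1, 16.9, 64.4, 14.9 and 51.7 CPM, and in bone marrow libraries 11, 13, 14 and 15 at 72.3, 101, 79.7 and 75.2 CPM. Libraries 6, 8 and 10 lay near the bone marrow range, libraries 7 and 9 lay within the untreated range, and every bone marrow library was above every untreated one. Against untreated resident cells Isg15 rose 3.33-fold in MC903 resident cells (log2 fold change 1.73 ± 0.414, SE, adjusted p = 0.0258) and was 5.96-fold higher in bone marrow cells (2.58 ± 0.439, adjusted p = 0.000687). Bone marrow against MC903 resident cells gave 0.84 ± 0.424 with an adjusted p of 0.308. The call in MC903 resident cells was lost without library 1, 2, 5, 6 or 8 (adjusted p up to 0.108), with an offset for gene length, with limma and without libraries 7 and 8 together. That in bone marrow cells held whichever library was left out (9 fits) and in the 8 other alternatives.

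The other 6 genes of that group had no call. Usp18, which removes ISG15 and restrains the interferon receptor, had means of 18, 30.4 and 33.3 CPM in untreated resident, MC903 resident and bone marrow cells. Trim25, a ubiquitin ligase acting on RIG-I, had means of 18.9, 19.3 and 38.7 CPM (adjusted p = 0.179 for bone marrow against untreated resident cells). Parp9 and its partner Dtx3l had means of 23.1, 30.5 and 46.6 CPM and of 18.2, 19 and 17.5 CPM, and they share 458 exon bases on opposite strands. Trim30a and Parp14 had their highest means in untreated resident cells, at 38.6 and 14.7 CPM.

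Among the antiviral effectors, 5 of 20 tested were called higher in bone marrow against untreated resident cells (3.49% of all genes tested), among them the interferon-induced transmembrane genes Ifitm2 and Ifitm3, which hinder the fusion of viruses with cell membranes. Ifitm2 (ENSMUSG00000060591.9, minus strand of chromosome 7 from 140954837 to 140955987) was at 120, 170, 130, 159 and 162 CPM in libraries 1 to 5. It was at 218, 181, 274, 221 and 246 CPM in libraries 6 to 10 and at 497, 306, 382 and 391 CPM in libraries 11, 13, 14 and 15. The 3 groups did not overlap at any point and stood in the order untreated resident, MC903 resident, bone marrow. Bone marrow cells were 1.73-fold above MC903 resident cells (log2 fold change 0.79 ± 0.187, SE, adjusted p = 0.0278) and 2.66-fold above untreated resident cells (1.41 ± 0.188, adjusted p = 5.29e-05). MC903 resident against untreated resident cells gave 0.62 ± 0.178 with an adjusted p of 0.077, and was called with DESeq2 size factors, TMM factors from genes of at least 10 CPM, a filter at that mean, DESeq2's test, the compared groups alone and without library 7 (adjusted p down to 0.00232). The call against MC903 resident cells was lost without library 6, 7, 9, 10, 11 or 14 (adjusted p up to 0.124) and with 4 of 9 other alternatives, and that against untreated resident cells was lost in none of those run. Of the 655 transcript bases of Ifitm2, 268 also belong to the predicted gene Gm45717 on the same strand, which had 0 counts.

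Ifitm3 (ENSMUSG00000025492.6, minus strand of chromosome 7 from 141009586 to 141010770) was at 1.19, 1.96, 0.374, 0.473 and 1.74 CPM in libraries 1 to 5, at 23.2, 12.5, 14.8, 0.388 and 43.6 CPM in libraries 6 to 10, and at 108, 130, 76 and 281 CPM in libraries 11, 13, 14 and 15. Library 9 lay within the untreated range while the other MC903 resident libraries lay above it, and all bone marrow libraries were above all others. MC903 resident cells were 16.4-fold above untreated resident cells (log2 fold change 4.04 ± 0.892, SE, adjusted p = 0.0302). It fell short without library 1, 2, 3, 4, 5, 6 or 10 (adjusted p up to 0.0822) and with 4 of 9 other alternatives (limma, no filter, a length offset, and libraries 7 and 8 left out), while without library 9 the adjusted p was 9.88e-05. Bone marrow cells were 129-fold above untreated resident cells (7.01 ± 1.02, adjusted p = 0.00082), and the log2 value without library 15 was 6.51 with an adjusted p of 0.000467. Bone marrow against MC903 resident cells gave 2.98 ± 0.852 (adjusted p = 0.098), without overlap, and was called by DESeq2, by limma and without library 9. How reads that match several IFITM genes were counted is not given in the sources used here.

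Oasl1, a relative of the oligoadenylate synthetases that restrains IRF7 translation, was called in bone marrow against untreated resident cells (ENSMUSG00000041827.15, plus strand of chromosome 5 from 114923240 to 114937915). It was at 0.226, 0, 0.523, 0.0945 and 0 CPM in libraries 1 to 5, at 0.726, 4.79, 0.707, 0.388 and 0 CPM in libraries 6 to 10, and at 0.668, 11.1, 30.4 and 12.3 CPM in libraries 11, 13, 14 and 15. Untreated libraries held at most 14 counts of it, and library 11 lay close above them, so the groups did not overlap by a small margin. Its log2 fold change was 6.28 ± 1.62 (SE, adjusted p = 0.0204), and the call was lost without library 4 or 14 (adjusted p up to 0.0878; log2 value 5.50 without library 14 and 7.35 without library 3) and could not be tested under a filter at a mean of 10 CPM. Oas1a, which makes the oligoadenylate that activates RNase L, had 1.58 ± 2.41 CPM (SD, n = 5), 4.83 ± 4.67 CPM (n = 5) and 22 ± 17.4 CPM (n = 4) in the 3 groups. Its bone marrow libraries were above all untreated ones by a small margin (5.76 CPM in library 11 against 5.56 CPM in library 5). Its adjusted p in that comparison was 0.0925 by edgeR, and it was called by DESeq2, by limma, with no filter and without library 5. Library 15 (46.7 CPM) was its highest, and edgeR did not call it without that library. Oas1b, Oas1c and Oas1g are close relatives of Oas1a, so its reads may be shared with them. Oasl2 was at 0 in library 5 and between 6.94 and 30.8 CPM in the other 13 libraries. Oas3 reached at most 6.38 CPM and Oas2 5.46 CPM.

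Rtp4, a chaperone of receptors that also restrains some viruses, was called in bone marrow against untreated resident cells (ENSMUSG00000033355.6, plus strand of chromosome 16 from 23520291 to 23614222). It was at 0.677, 0.286, 0, 0.473 and 7.39 CPM in libraries 1 to 5, at 16.9, 6.12, 5.34, 9.3 and 4.66 CPM in libraries 6 to 10, and at 3.25, 28.3, 49.4 and 61.5 CPM in libraries 11, 13, 14 and 15. Library 11 lay below untreated library 5, so these groups overlapped. The difference was 4.33 ± 1.14 on the log2 scale (SE, adjusted p = 0.0249), and it was lost without library 1, 2, 4, 13 or 14 (adjusted p up to 0.065) and in a fit of the compared groups alone (0.07). Without library 5 it was 6.64 (adjusted p = 0.000569). Without library 5, Rtp4 was also called in MC903 resident against untreated resident cells (adjusted p = 0.012, against 0.353 with it).

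Xaf1, which opposes an inhibitor of cell death, was called in the same comparison (ENSMUSG00000040483.15, plus strand of chromosome 11 from 72301629 to 72313733). It was at 5.87, 10.8, 10.4, 15 and 8.5 CPM in libraries 1 to 5, at 53, 7.56, 37.5, 17.4 and 16.3 CPM in libraries 6 to 10, and at 35.5, 28.7, 43.5 and 19.5 CPM in libraries 11, 13, 14 and 15. Bone marrow libraries were all above the untreated ones, and MC903 resident libraries ran from below the untreated median to above every bone marrow library. The log2 fold change of bone marrow against untreated resident cells was 1.65 ± 0.481 (SE, adjusted p = 0.0405). It was lost in 7 of 9 leave-one-out fits, namely those without library 1, 2, 3, 5, 11, 13 or 14 (adjusted p up to 0.115), and with limma (0.0586). In MC903 resident against untreated resident cells Xaf1 (adjusted p = 0.141) was called with DESeq2's test and with a filter at a mean of 10 CPM.

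Bst2 encodes tetherin, which holds budding virus at the cell surface. It was at 34.4, 57.7, 50.6, 57.3 and 62.8 CPM in libraries 1 to 5 and at 114, 69.5, 106, 102 and 109 CPM in libraries 6 to 10, without overlap. In bone marrow libraries 11, 13, 14 and 15 it was at 57.3, 70.6, 85.3 and 146 CPM, which overlapped both other groups. The log2 fold change of MC903 resident against untreated resident cells was 0.93 ± 0.255 (SE, adjusted p = 0.0625). Bst2 passed the threshold there with DESeq2 size factors, with TMM factors from genes of at least 10 CPM, with a filter at a mean of 10 CPM, with DESeq2's test, with limma, in a fit of the compared groups alone and without library 7. Bone marrow against untreated resident cells (adjusted p = 0.0901) passed with DESeq2's test and with that filter.

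Other effectors were low or did not move together. Ifit1, Ifit2 and Ifit3 encode proteins that bind foreign RNA and are widely used as markers of interferon exposure. Each was at 0 in 6 or 7 of the 14 libraries, and their highest values were 10.7 CPM (library 14), 12 CPM (library 15) and 5.36 CPM (library 14). The dynamin-like GTPases Mx1 and Mx2 reached 9.85 CPM (library 15) and 8.4 CPM (library 6), and Rsad2, which encodes viperin, 12.9 CPM (library 14). None of these 6 genes was called by edgeR in any comparison, and Rsad2 was called by DESeq2 and limma in bone marrow against untreated resident cells. Ifi44 had at most 3 counts in every bone marrow library and 2 to 37 counts in MC903 resident libraries, so the groups parted at the floor (0.128 against 0.129 CPM), and its adjusted p was 0.242. Samd9l, which halts translation in infected cells, was the member with the largest decrease on the CPM scale. It was at 139 ± 61.6 CPM (SD, n = 5) in untreated resident, 72.9 ± 26 CPM (n = 5) in MC903 resident and 74.7 ± 35.5 CPM (n = 4) in the bone marrow group (adjusted p = 0.167 and 0.135 against untreated cells). Ifi35 had means of 35.1, 42.3 and 36.8 CPM. Eif2ak2, which encodes the RNA-activated kinase PKR, had means of 4.89, 6.76 and 6.33 CPM, and Cmpk2, a mitochondrial nucleotide kinase, 3.31, 7.1 and 3.27 CPM.

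**Figure D3:**
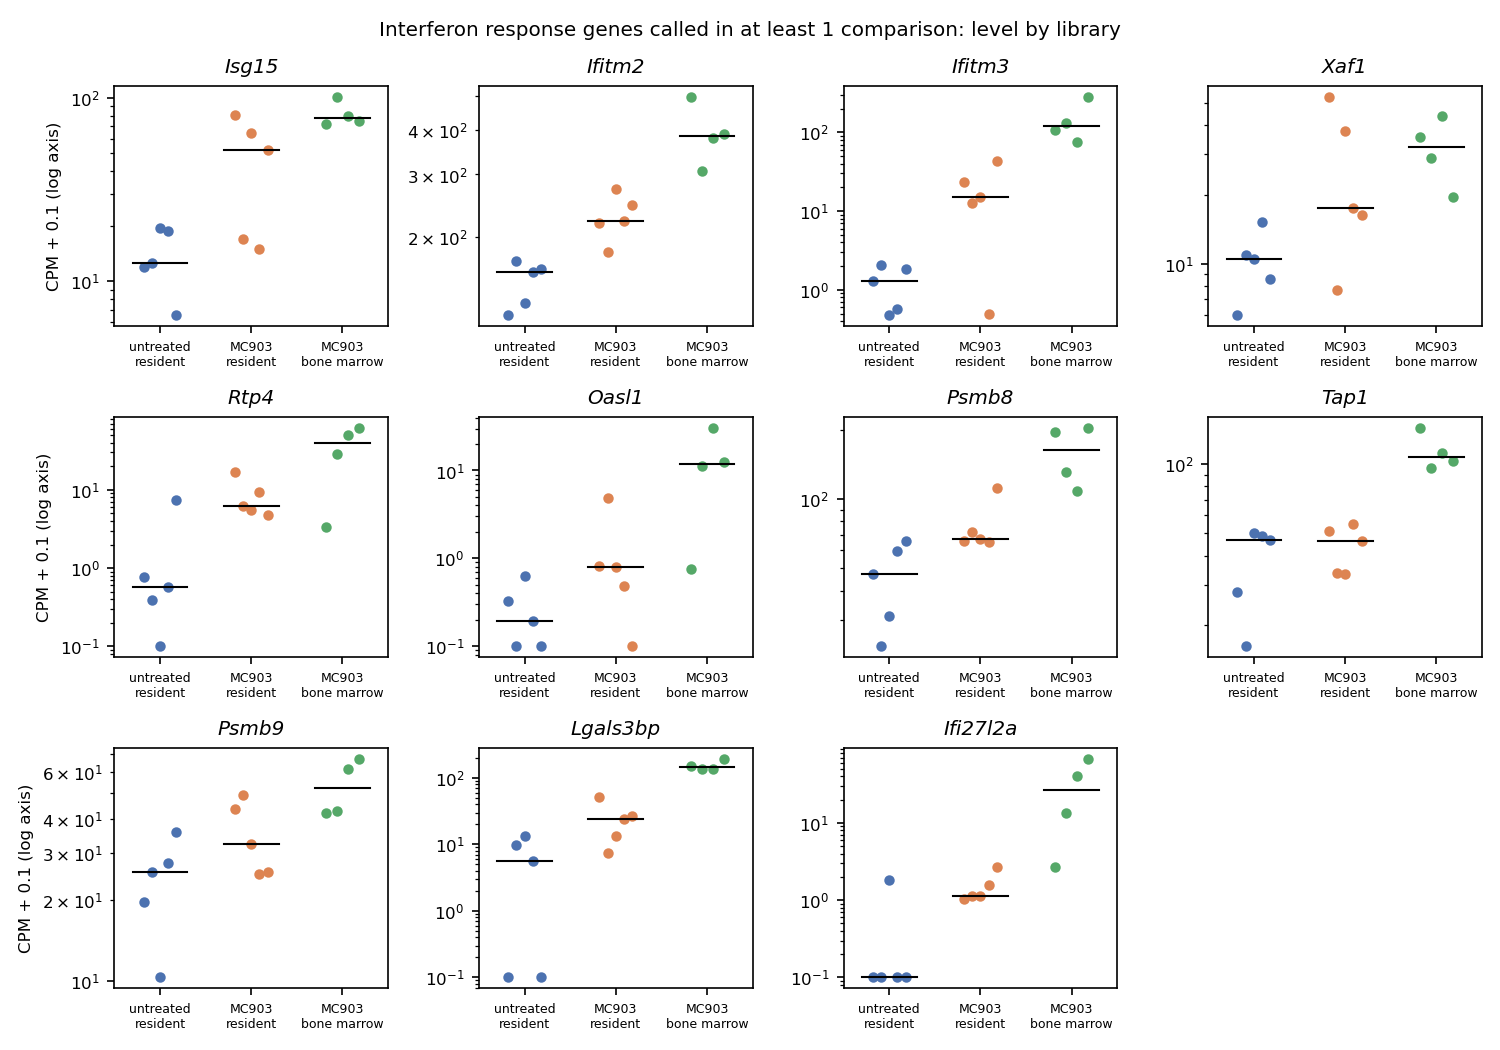
CPM plus 0.1 (log axis) of the 11 members called in at least 1 comparison, each point a library and each line the median of its group. In Tap1 all bone marrow points lie above all others, in Psmb8 only MC903 resident library 10 (111 CPM) reaches them, and Isg15, Ifitm3 and Xaf1 spread widely among the MC903 resident libraries.

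The guanylate-binding proteins are GTPases that attack the compartments of intracellular microbes and are known above all as targets of interferon gamma. None of Gbp2, Gbp3 and Gbp7 was called by edgeR, DESeq2 or limma, with 0, 2 and 0 of them higher at an unadjusted edgeR p under 0.05 (6.07%, 7.04% and 9.76% of all genes), the 2 being Gbp2 and Gbp3, whose highest library was 15. Gbp2 (ENSMUSG00000028270.12, plus strand of chromosome 3 from 142620602 to 142638008), the highest per length, was at 31.3, 2.78, 16.2, 7.52 and 99 CPM in libraries 1 to 5. It was at 11.8, 37.8, 34.7, 38.4 and 7.73 CPM in libraries 6 to 10 and at 33.7, 31.7, 51.9 and 491 CPM in libraries 11, 13, 14 and 15. The groups overlapped, with library 15 far above the others and untreated library 5 next to it. The log2 fold change of bone marrow against untreated resident cells was 2.28 ± 1.11 (SE, adjusted p = 0.269), and 0.33 (adjusted p = 0.831) without library 15. Against MC903 resident cells it was 2.54 ± 1.12 (adjusted p = 0.266), and 0.59 without library 15. Gbp3 reached 84.7 CPM in library 15, against 9.78 CPM or less elsewhere. The summed level of the 3 genes was 637.5 CPM in library 15, the one with the macrophage markers, against a range of 36.2 to 163.8 CPM elsewhere. Their part in the values of Gbp2 and Gbp3 was not tested.

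All 3 antigen-processing members were called higher in bone marrow against untreated resident cells (3.49% of all genes tested), where the call of Psmb9 held in 1 of 9 leave-one-out fits. Psmb8 and Psmb9 encode catalytic subunits of the immunoproteasome, which replace constitutive subunits and favour peptides for MHC class I. Tap1 encodes a subunit of the transporter that carries those peptides into the endoplasmic reticulum. The 3 together summed to 64.4 to 148.1 CPM in untreated resident, 132.2 to 182.8 CPM in MC903 resident and 270.2 to 380.8 CPM in bone marrow libraries. The bone marrow sums were above those of every resident library, and libraries 11 and 15 were the highest.

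Tap1 (ENSMUSG00000037321.17, plus strand of chromosome 17 from 34187553 to 34197225) was at 27.8, 16.1, 50.3, 48.5 and 46.6 CPM in libraries 1 to 5. It was at 51.1, 33.7, 33.2, 55 and 46.2 CPM in libraries 6 to 10 and at 143, 95.9, 111 and 103 CPM in libraries 11, 13, 14 and 15. The resident groups overlapped, with untreated libraries 1 and 2 the lowest of all, and every bone marrow library lay above both. In bone marrow cells Tap1 was 2.58-fold above its level in MC903 resident cells (log2 fold change 1.37 ± 0.302, SE, adjusted p = 0.0173) and 2.99-fold above that in untreated resident cells (1.58 ± 0.303, adjusted p = 0.00205). MC903 resident against untreated resident cells gave 0.21 ± 0.285 (adjusted p = 0.868). Without library 15 the adjusted p was 0.0152 against MC903 resident and 0.00237 against untreated resident cells. The call against MC903 resident cells was lost without library 7, 8 or 11 (adjusted p up to 0.0657) and without libraries 7 and 8 together (0.171).

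Psmb8 (ENSMUSG00000024338.15, plus strand of chromosome 17 from 34197721 to 34201454) was at 47.2, 22.8, 31, 59.4 and 65.8 CPM in libraries 1 to 5. It was at 65.4, 71.7, 66.8, 64.8 and 111 CPM in libraries 6 to 10 and at 195, 131, 109 and 204 CPM in libraries 11, 13, 14 and 15. Bone marrow libraries were above all untreated ones, and of the MC903 resident libraries only library 10 reached their range. In bone marrow cells Psmb8 was 3.53-fold above its untreated level (log2 fold change 1.82 ± 0.298, SE, adjusted p = 0.000452; 0.000967 without library 15), and that call held under every alternative run. Against MC903 resident cells the value was 1.07 ± 0.294 (adjusted p = 0.0619), which passed the threshold with DESeq2's test, limma, an offset for gene length, no filter and without library 14. MC903 resident against untreated resident cells gave 0.75 ± 0.28 (adjusted p = 0.207), which passed with a filter at a mean of 10 CPM. Psmb8 shares 498 of its 3381 exon bases with the predicted gene Gm20496 on the opposite strand, which had 0 counts.

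Psmb9 (ENSMUSG00000096727.3, minus strand of chromosome 17 from 34181987 to 34187764) was at 19.6, 25.4, 10.2, 27.3 and 35.7 CPM in libraries 1 to 5. It was at 43.5, 49, 32.1, 24.9 and 25.4 CPM in libraries 6 to 10 and at 42.1, 43, 61.2 and 67 CPM in libraries 11, 13, 14 and 15. Bone marrow libraries were all above the untreated ones and overlapped the MC903 resident ones. The log2 fold change of bone marrow against untreated resident cells was 1.17 ± 0.347 (SE, adjusted p = 0.0446). The 1 leave-one-out fit in which this call held was the one without library 5 (adjusted p up to 0.107 in the others). The call was also lost with DESeq2 size factors, without a filter and in a fit of the compared groups alone. Tap1 and Psmb9 share 212 exon bases on opposite strands, and without a stated strand setting reads there cannot be given to either.

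**Figure D4:**
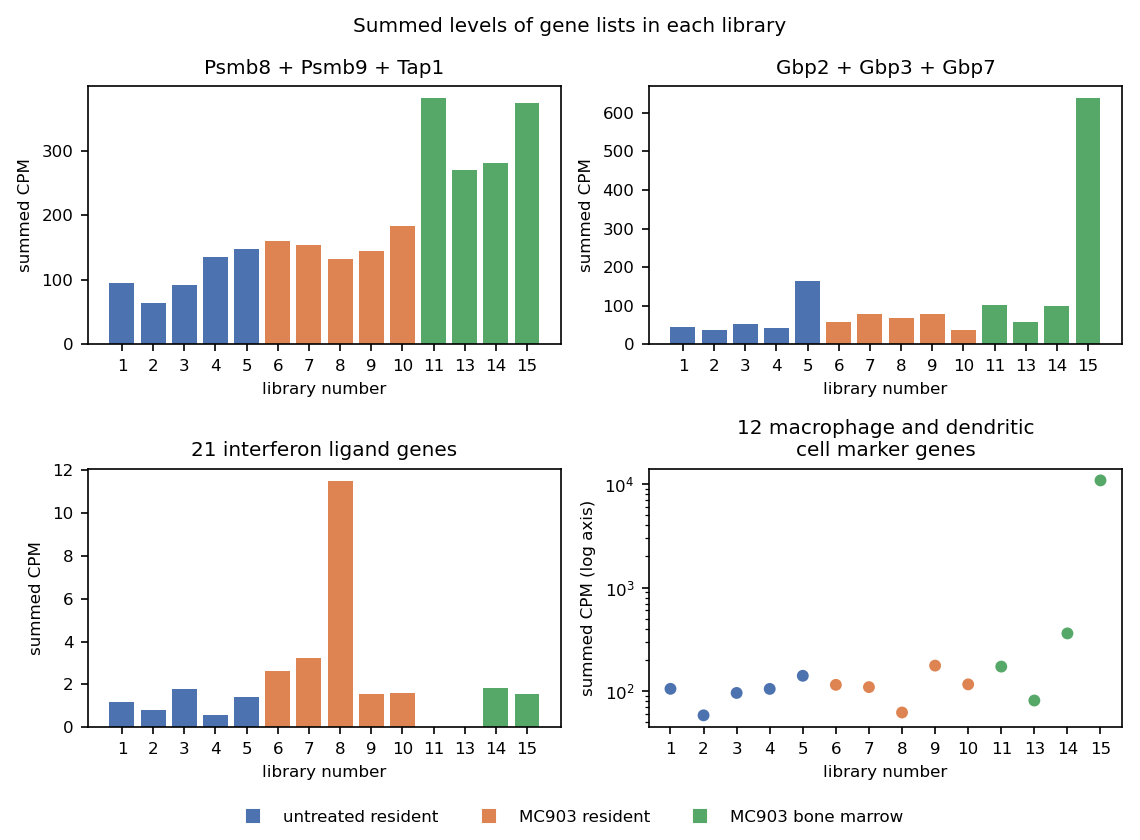
Summed CPM per library of the 3 antigen-processing members, the 3 guanylate-binding members, the 21 interferon ligand genes (bars from 0) and 12 macrophage and dendritic cell markers (points on a log axis). The antigen-processing sum is 270.2 to 380.8 CPM in all 4 bone marrow libraries and at most 182.8 CPM elsewhere, whereas the guanylate-binding sum and the macrophage markers are highest in library 15 alone (637.5 and 10900 CPM).

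The last 3 members are Lgals3bp, which encodes a secreted galectin-binding glycoprotein, Ifi27l2a, which encodes a small interferon-induced protein, and Sp100, which encodes a protein of nuclear bodies. Lgals3bp (ENSMUSG00000033880.11, minus strand of chromosome 11 from 118392751 to 118402092) was at 0, 9.8, 13.2, 5.44 and 0 CPM in libraries 1 to 5. It was at 50.8, 7.21, 13.2, 23.9 and 26.5 CPM in libraries 6 to 10 and at 148, 137, 135 and 192 CPM in libraries 11, 13, 14 and 15. Every bone marrow library was above every resident one by more than the spread among the bone marrow libraries. In bone marrow cells Lgals3bp was 26.7-fold above its untreated level (log2 fold change 4.74 ± 1.27, SE, adjusted p = 0.0463). It was lost without library 2, 3, 4, 11, 13, 14 or 15 (adjusted p up to 0.0973) and with an offset for gene length or no filter on low counts (up to 0.128). Against MC903 resident cells the value was 2.65 ± 1.17 (adjusted p = 0.267), and limma and a fit of the compared groups alone called it.

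Ifi27l2a (ENSMUSG00000079017.3, minus strand of chromosome 12 from 103442167 to 103443680) had reads in 1 of the untreated libraries. It was at 1.72 CPM in library 3 and at 0 in libraries 1, 2, 4 and 5, at 0.934, 1.04, 1.03, 1.45 and 2.6 CPM in libraries 6 to 10, and at 2.59, 13.4, 40.1 and 67.4 CPM in libraries 11, 13, 14 and 15. Bone marrow libraries were all above the untreated ones, with library 11 at the level of MC903 resident library 10. The log2 fold change of bone marrow against untreated resident cells was 6.43 ± 1.44 (SE, adjusted p = 0.00725) and was called in every alternative that tested it (a filter at a mean of 10 CPM removed it), from 5.70 without library 15 (adjusted p = 0.0272) to 12.4 without library 3, where the untreated group is at 0 and the fitted size is no measure. Against MC903 resident cells the value was 4.44 ± 1.31 (adjusted p = 0.0872), and it was called with no filter, with DESeq2's test and in a fit of the compared groups alone. Without library 3, Ifi27l2a was called in MC903 resident against untreated resident cells (adjusted p = 0.00414), against 0.56 with it.

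Sp100 had 55.8 ± 15.1 CPM (SD, n = 5) in untreated resident, 39.5 ± 10 CPM (n = 5) in MC903 resident and 79.4 ± 16.3 CPM (n = 4) in the bone marrow group. Bone marrow libraries did not overlap the MC903 resident ones, and the log2 fold change was 1.01 ± 0.268 (SE, adjusted p = 0.0518). DESeq2, limma and the fit without library 15 called it.

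Upstream of the list, interferon genes themselves had few reads. The 21 ligand genes listed (the interferon alpha family, Ifnb1, Ifne, Ifnk, Ifnz, Ifng, Ifnl2 and Ifnl3) summed to 0.567 to 1.76 CPM in untreated resident, 1.55 to 11.5 CPM in MC903 resident and 0 to 1.83 CPM in bone marrow libraries, and 1 of them (Ifna6) had enough reads to be tested. The highest sum was that of library 8, and Ifng had no read in any library, which allows up to 3 counts in each (counting error only).

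Of 22 receptor and signalling genes, 21 were tested, and in MC903 resident against untreated resident cells 1 rose and 2 fell (0.571% and 1.68% of all genes). At an unadjusted p under 0.05, 3 were higher and 3 lower there (6.07% and 6.56% of all genes). Ifnar2, a chain of the type I receptor, fell from 578 ± 87 CPM (SD, n = 5; 492 to 672) to 276.5 ± 37.1 CPM (SD, n = 5; 229 to 327), without overlap (log2 fold change -1.06 ± 0.198, SE, adjusted p = 0.00371). Among 19 alternatives the call was lost in 1, without libraries 7 and 8 (adjusted p = 0.0527). Ifngr1, the ligand-binding chain of the interferon gamma receptor, fell from 77.4 ± 22.2 to 36.2 ± 11.8 CPM (-1.09 ± 0.277, adjusted p = 0.0385), a call that failed in 11 of 19 alternatives, among them those without library 1, 3, 4, 5, 6, 7, 8 or 10 (adjusted p up to 0.237). Ptpn2, a phosphatase that acts on JAK and STAT proteins, rose from 200.8 ± 43.7 to 400.2 ± 103 CPM (0.99 ± 0.213, adjusted p = 0.0111) and was called in all 19.

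Of the same 21, in bone marrow against MC903 resident cells 4 were higher and 0 lower by edgeR (1.32% and 0.952% of all genes), and 7 and 0 at an unadjusted p under 0.05 (7.04% and 10.6%). These were Ifnar1, the other chain of the type I receptor (61.6 ± 4.83 to 117 ± 25.1 CPM, adjusted p = 0.0305), Ifngr1 (79.2 ± 18 CPM in bone marrow cells, adjusted p = 0.0428), Jak2 (32.5 ± 12.6 to 85.3 ± 22.5 CPM, adjusted p = 0.02) and Socs1, a feedback inhibitor of JAK kinases (47.4 ± 19.8 to 136 ± 42.9 CPM, adjusted p = 0.0341). All 4 calls were lost with DESeq2 size factors, without libraries 7 and 8 together and without library 8, and each in 7 to 12 of 18 alternatives (adjusted p up to 0.212). Without library 15 only that of Ifngr1 was lost. Against untreated resident cells, 2 of the 21 were higher in bone marrow cells, Socs1 (50.3 ± 24.8 CPM in untreated cells, adjusted p = 0.0212) and Ptpn2 (344.8 ± 83 CPM in bone marrow cells, adjusted p = 0.0361), and 0 were lower by edgeR (3.49% and 3.37% of all genes), with 9 higher and 4 lower at an unadjusted p under 0.05 (9.76% and 11.5%). Those calls were lost in 4 and 7 of 17 alternatives, all of them leave-one-out fits (adjusted p up to 0.058 and 0.106), both without library 2, 3, 11 or 13. Of 14 further nucleic acid sensing genes tested, 1 fell in MC903 resident against untreated resident cells (1.68% of all genes) and 0 rose (0.571%). This was Traf6 (48.6 ± 13.5 to 17 ± 5.4 CPM, adjusted p = 0.0206, lost in 8 of 19 alternatives). At an unadjusted p under 0.05, 0 were higher and 2 lower there (6.07% and 6.56% of all genes). In the other comparisons 0 were called. At the unadjusted threshold 1 gene was higher in the second and 1 lower in the third (7.04% and 11.5% of all genes).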

How the data were processed

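RNA of sorted mouse mast cells was made into libraries with SMART-Seq HT and Nextera XT, per the labels' protocols. Per the submitters' processing notes the tools were STAR and featureCounts and the build mm10. The authors deposited raw read counts per gene for the 14 libraries. Versions, strand setting and the treatment of reads with several matches are not given in the sources used here. Gene lengths were taken from the deposited table.

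Genes were kept with edgeR's filterByExpr (minimum count 10, minimum total 15), which left 21014 of 55487 genes, and scaled by TMM. One quasi-likelihood model in edgeR 4.0.16 (R 4.3.3) was fitted to the 14 libraries in 3 groups, with no covariate, and the 3 comparisons were taken from it with Benjamini-Hochberg adjustment over all genes tested and a threshold of 0.05. The biological coefficient of variation was 1.15. DESeq2 1.42.0, limma 3.58.1, other scalings, other filters, an offset by 20 bins of gene length, the compared groups alone, libraries 7 and 8 left out, and each library left out were alternatives. The scripts were tested on simulated data. The members and all other lists were chosen with earlier results of these data known. Members given in every library are those called in any comparison and the member with the highest CPM per kilobase of each role. A library with 3 counts or fewer of a gene is treated as at the floor. Total counts of 13068078 to 31781926 per library bound the counting error, which takes no account of PCR copies. Promoter windows came from RefSeq (GRCm38.p6), matched by symbol for 35 of 45 members. The result of 1 signalling gene is not reported here.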

Additional observations from a re-analysis of the deposited data

Results flagged for a closer look

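In 13 of 132 groups of libraries (44 members in 3 groups), the highest or lowest library stood away from the others by a share of the group's range, on the log2 CPM scale, above Dixon's 95% value for 4 or 5 samples. That value is meant for normally distributed values. Several of the flagged groups have all their other libraries at or near 0, so the share that chance alone would give is not known here. Among untreated resident libraries, library 5 was low in Dhx58 (0.089 CPM, the others 5.14 to 8.13) and in Oasl2 (0 CPM, the others 10.8 to 16.9), and library 1 was high in Mx2 (6.32 CPM, the others at most 0.0408) and in Ifi44 (0.79 CPM, the others at most 0.0748). Library 3 was the untreated library with reads of Ifi27l2a (1.72 CPM). Among MC903 resident libraries, library 9 was low in Ifitm3 (0.388 CPM, the others 12.5 to 43.6), library 7 was low in Bst2 (69.5 CPM, the others 102 to 114), and library 10 was high in Psmb8 (111 CPM, the others 64.8 to 71.7). Among bone marrow libraries, library 14 was high in Ifit1 (10.7 CPM, the others at 0), and library 11 was high in Mx2 (7.68 CPM, the others at most 0.0505). Library 15 was high in Mx1 (9.85 CPM, the others at most 0.0851) and low in Sp100 (55.1 CPM, the others 85.3 to 89.4). The Ifi44 value of library 14 (0.128 CPM, the other bone marrow libraries at 0) met the same criterion but is 3 counts, which is at the floor, so it does not set the library apart.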

How the results depend on the processing

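No paired analysis was possible because the groups share no replicate numbers. In MC903 resident against untreated resident cells, 2 members higher became 4 with DESeq2 size factors, with TMM factors from genes of at least 10 CPM and in a fit of the compared groups alone, 6 with a filter at a mean of 10 CPM and with DESeq2's test, 1 with no filter, 0 with a length offset and 0 without libraries 7 and 8, and 0 to 4 when each library was left out. All genes called higher there were 120 of 21014 at first and 207 and 251 with the other scalings. With the compared groups alone they were 196 of 15889, and with that filter 307 of 8209, where 27 members were tested. DESeq2's test gave 600 and a length offset 101 of 21014, and no filter gave 182 of 48615. Without libraries 7 and 8 there were 58 of 20055, and leaving out a library gave 83 to 164 of 18969 to 20711. Members lower, 0 at first, became 1 (Samd9l) with no filter and with limma. All genes lower were 353 of 21014 at first, 477 of 48615 with no filter and 697 of 21014 with limma. All genes called (473) became 1072 with DESeq2, 1358 with limma and 189 without libraries 7 and 8. In bone marrow against MC903 resident cells, 2 members higher became 1 with either other scaling, 4 with no filter, 6 with DESeq2's test and with limma, 0 without libraries 7 and 8, and 0 to 3 leaving out a library. All genes higher there were 277 of 21014 at first, 167 and 178 with the other scalings and 464 of 48615 with no filter. DESeq2's test gave 445 and limma 672 of 21014. Without libraries 7 and 8 there were 83 of 20055, and leaving out a library gave 138 to 328 of 18969 to 24598. All genes called (477) became 748 with no filter, 1720 with DESeq2, 2017 with limma, 315 with the compared groups alone, 209 without libraries 7 and 8, and 298 to 704 leaving out a library. In bone marrow against untreated resident cells, 11 members higher ranged from 6 to 12 leaving out a library, members lower from 0 to 1 (Samd9l, without library 14), and all genes called (1443) became 2757 with DESeq2 and 2194 with limma. All genes higher there were 734 of 21014 at first and 549 to 816 of 19998 to 24598 leaving out a library. All genes lower were 677 of 24442 without library 14. Among the 14 members followed through every alternative, signs turned for 3, each where it was not called: Gbp2 in the first comparison (-0.26) was 0.87 with limma and -0.53 to 0.86 leaving out a library (above 0 without 5 or 10), Xaf1 in the second (0.27) was -0.0298 (without 7) to 0.67, and Irf1 in the third (0.53) was -0.0905 with limma and -0.44 (without 15) to 0.85. The cause was not tested. Of the values for these 14 members, 647 kept direction and side of the threshold, 69 lost a call, 24 gained one and 6 changed sign. A library of low total count limits the members with few reads most.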

Other observations

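Genes that act next to Psmb8, Psmb9 and Tap1 were looked at after the values of those 3 had been seen, so what follows describes and supports nothing. Of 13 genes of MHC class I and its loading tested, edgeR called 1 higher in MC903 resident against untreated resident cells, 2 in bone marrow against MC903 resident cells and 5 in bone marrow against untreated resident cells (0.571%, 1.32% and 3.49% of all genes), and 0 lower. Calr, which encodes the chaperone calreticulin, had means of 99.6 ± 15 CPM (SD, n = 5) in untreated resident, 238 ± 34 CPM (n = 5) in MC903 resident and 466 ± 132.5 CPM (n = 4) in the bone marrow group. It was called in all 3 comparisons by edgeR, with adjusted p of 0.000632, 0.0093 and 9.06e-07. Psme2, a subunit of the proteasome activator, was higher in bone marrow than in untreated cells (log2 fold change 1.35, adjusted p = 0.000759), as was Pdia3, a chaperone of the loading complex (0.93, 0.0103). B2m, the light chain of MHC class I, was called there as well (0.83, adjusted p = 0.0228), and so was the immunoproteasome subunit gene Psmb10 (1.22, 0.0188), but neither without library 15 (0.0905 and 0.0694). The heavy chain genes H2-K1 and H2-D1 were not called. Tap2, the partner of Tap1, was called in bone marrow against MC903 resident cells (1.26 ± 0.261, SE, adjusted p = 0.0108), where its mean rose from 40.9 to 97.8 CPM. Its mean in untreated resident cells was 59.7 CPM. Against these it was not called in MC903 resident (-0.55, adjusted p = 0.347) or bone marrow cells (0.71, adjusted p = 0.112). Psmb5, a constitutive proteasome subunit that the immunoproteasome replaces, was higher in bone marrow than in untreated cells too (1.24, adjusted p = 0.00175), while Psmb6 and Psmb7 were not called.

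Of 19 close relatives of the members listed after their values were seen, 11 were tested. Ifi27 alone was called by edgeR, in bone marrow against untreated resident cells (log2 fold change 1.85, adjusted p = 0.000565), where 3.49% of all genes were higher.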
